A study of Mus musculus with 66 samples.

Results

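The genes described are those of the glutamate receptors and of the small proteins that ride on AMPA receptors: the AMPA subunits Gria1 to Gria4, the kainate subunits Grik1 to Grik5, the NMDA subunits Grin1, Grin2a to Grin2d, Grin3a and Grin3b, the delta subunit Grid1, the metabotropic receptors Grm2 to Grm8, the TARPs Cacng2, Cacng3, Cacng4, Cacng5, Cacng7 and Cacng8, and the cornichons Cnih2 and Cnih3. They were taken from the table by gene symbol, and the list was drawn up with earlier results of these data known. Of the 32 genes named, 31 were entries of the deposited table of 24138 genes, and Cacng8 was listed only in an entry joined with the small RNA gene Gm23450, whose value may hold reads of both and is called the joint Cacng8 entry. Values are FPKM, reads divided by the length of the transcript and by the size of the library, so that levels of different genes are compared per length.

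RNA was measured in tissue punches of the ventral striatum, which holds the nucleus accumbens (NAcc), of adult male C57BL/6 mice. WT mice were compared with iMSN-D2RKO mice, in which both copies of the dopamine D2 receptor gene Drd2 carried flox sites and Cre was driven by the D1R promoter, which is active in the embryonic precursors of both kinds of medium spiny neuron (MSN), so that the deletion covers iMSNs, the MSNs of the indirect pathway. Mice of either genotype received saline or 20 mg/kg cocaine once, at zeitgeber time (ZT) 3 of a light and dark cycle, and were killed every 4 h, at ZT7, ZT11, ZT15, ZT19 and ZT23, with mice killed at ZT3 as the start of both series. There were 22 groups of 3 libraries, 66 in all, and the 3 ZT3 libraries of a genotype stood in its saline series and in its cocaine series, so each series had 18. Nothing in the labels says whether replicates came from separate mice, so a p-value measures only the spread between libraries.

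As background, AMPA receptors carry most fast excitation, and Gria2 keeps calcium out of channels that contain it. NMDA receptors need Grin1 and a Grin2 or Grin3 partner and pass calcium when glutamate arrives at an already depolarized membrane. In the NAcc, glutamate from cortex, hippocampus, thalamus and amygdala reaches MSNs, whose AMPA and NMDA receptors have long been studied in cocaine seeking.

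Depth could not be read from FPKM, so precision rests on the replicates. Total FPKM per library ran from 364078 to 690048. Within groups, 13 libraries stood apart on the first axis of variation, which held 43.6% of the variance of 9584 genes: their scores were 51.7 to 63.5, against -28.4 to 22.5 in the other 53. They were 6 WT and 7 iMSN-D2RKO libraries of 10 groups, 12 of them from dark hours (ZT15, ZT19 and ZT23), and are called the set-apart libraries. Every marker gene checked reached 1 FPKM in at least 1 library. Summed FPKM of the indirect MSN markers had a median of 2730 in the set-apart libraries and 1916 in the others. Markers of both kinds of MSN went the other way, with 1999 and 2260, and direct MSN markers had 443 and 434. Interneuron markers had 1565 and 1152, astrocyte markers 365 and 244, and oligodendrocyte markers 2277 and 2912. Cortical neuron markers summed to 3.51 to 301 over all libraries, and choroid plexus markers reached 1123. Drd2, the targeted gene, ran from 99.6 to 279 FPKM in WT saline and from 78.0 to 375 in iMSN-D2RKO saline libraries (log2 difference -0.02, SE 0.17, limma adjusted p = 0.978), so with all libraries the values of the whole gene do not separate the genotypes. Drd2 had a mean of 244 ± 51.2 FPKM in the set-apart libraries (SD, n = 13) and 124 ± 44.2 in the others (n = 53). A fit of Drd2 without the set-apart libraries is not given here. Neither the exons of Drd2 nor the cells its reads came from could be told apart in these values.

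Grin1, the subunit every NMDA receptor needs, was the highest of the genes in WT saline, at 185 ± 15.4 FPKM (SD, n = 18). Cnih2, a cornichon that takes AMPA receptors out of the endoplasmic reticulum and slows their closing, came next with 174 ± 40.0, and Gria2 had 136 ± 36.5. At the other end Grm6, the receptor of retinal ON bipolar cells, was at or near 0 and never above 0.0308 FPKM, and Grin3b, a glycine-binding NMDA subunit, had 0.644 ± 0.227. In the order of the 32 entries, the gap to the next entry was larger than the larger SD of the pair only below the joint Cacng8 entry, Gria3, Gria4, Cnih3, Grin3a, Grm8 and Grin3b. All other neighbours, such as Grin1 and Cnih2, lay within 1 SD of each other.

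**Figure D1:**
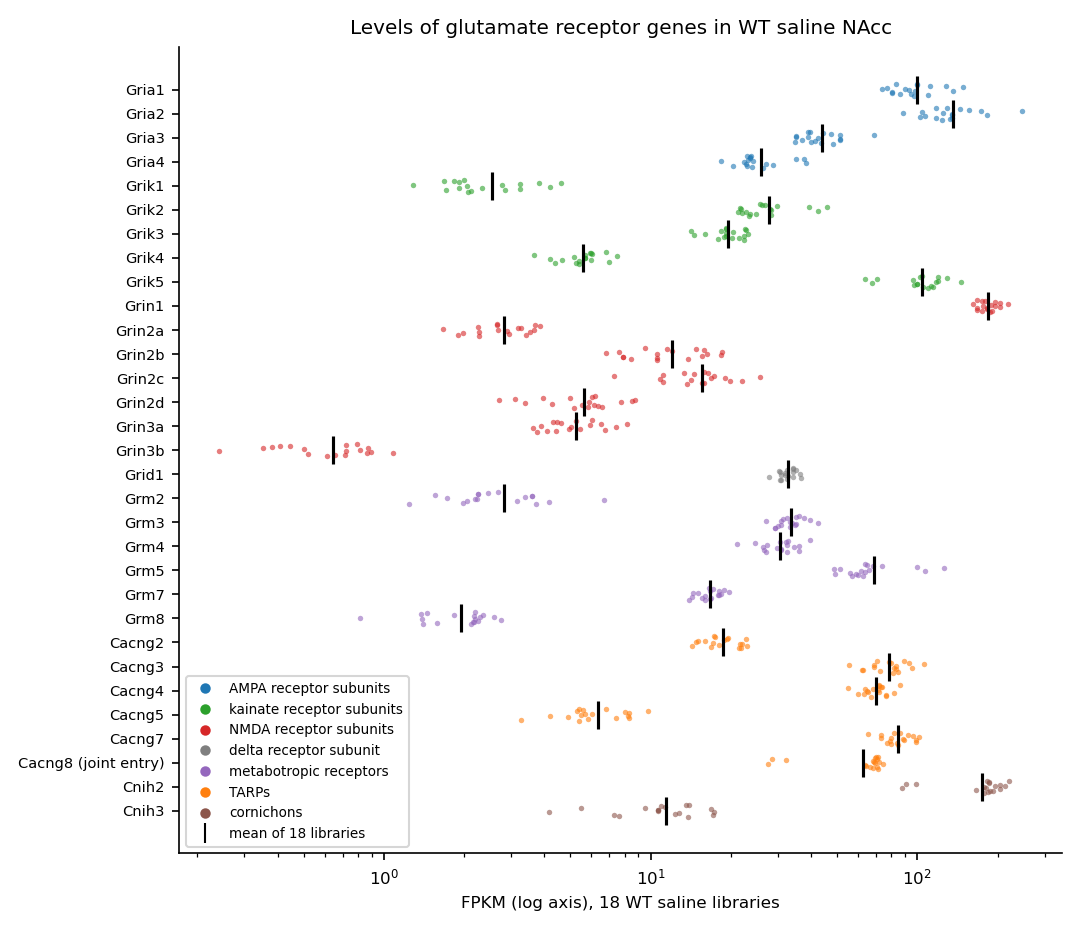
FPKM of each gene, on a log axis, in the 18 WT saline libraries (points) with their mean (bar), coloured by receptor family. Grin1, at 185, and Cnih2, at 174, lie at the right, Grin3b at the left with 0.644, and Grm6, at or near 0 in every library, is not drawn.

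Among AMPA subunits, Gria2 led with 44.4% ± 2.25 of their summed FPKM (SD, n = 18), followed by Gria1, the subunit of activity-dependent insertion, with 32.6% ± 1.26, Gria3 with 14.5% ± 1.16 and Gria4 with 8.56% ± 1.27. In FPKM, Gria1 had 99.4 ± 20.8, Gria3 43.9 ± 8.38 and Gria4 25.9 ± 5.60. In WT saline the order Gria2, Gria1, Gria3, Gria4 of the means therefore came with narrow shares, while their sum of 306 ± 68.7 varied more. Over the means of all 22 groups the share of Gria2 ran from 32.9% to 47.7% and that of Gria1 from 29.2% to 43.8%. In iMSN-D2RKO saline at ZT7 the mean of Gria1 was above that of Gria2. Of the kainate subunits, Grik5, which binds glutamate tightly but forms channels only with a partner, had 104 ± 20.8 FPKM and 64.6% of the sum. The channel-forming partners were lower, with 27.9 ± 7.32 for Grik2, 19.6 ± 2.70 for Grik3 and 2.54 ± 0.942 for Grik1, and the second tight binder Grik4 had 5.57 ± 0.972.

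The NMDA subunits that set channel kinetics were far below Grin1. Grin2c, known from cerebellar granule cells and astrocytes, had 15.6 ± 4.35 FPKM and the largest share of the summed Grin2 values, 42.9% ± 9.43. Grin2b, the slow subunit typical of forebrain, had 12.04 ± 3.80 and 33.8% ± 11.04, which overlaps Grin2c within the SDs. Grin2d had 5.61 ± 1.71 and Grin2a, the fast subunit of mature synapses, 2.82 ± 0.667. The share of Grin2b was 50.4% over the set-apart libraries and 28.9% over the others, and that of Grin2c 29.0% and 47.4%, so which of the pair led depended on the libraries taken. These shares also rest on the transcript lengths that FPKM divide by, which are not known here. The GENCODE transcripts have 24060 bases for Grin2b, 14634 for Grin2a, 4895 for Grin2c and 5431 for Grin2d. How far the order depends on length was not tested. Grin3a, which lowers calcium entry, had 5.25 ± 1.31 FPKM. Grid1, a delta subunit that links presynaptic cerebellins to the postsynaptic membrane, had 32.6 ± 2.37 and the smallest coefficient of variation of all the genes, 7.25%.

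Grm5, which signals through Gq and calcium stores, made up 43.8% ± 6.32 of the summed metabotropic values, at 68.8 ± 20.9 FPKM. The receptors that couple to Gi followed, Grm3 with 33.5 ± 3.87, Grm4 with 30.6 ± 4.57 and Grm7, a receptor of presynaptic active zones, with 16.7 ± 1.65. Grm2, the presynaptic autoreceptor, had 2.83 ± 1.27 and, Grm6 near 0 aside, the widest relative spread of all, a coefficient of variation of 44.8%, and Grm8 had 1.95 ± 0.506. TARPs hold AMPA receptors at synapses. The 4 highest lay close together, Cacng7 at 85.0 ± 10.2, Cacng3 at 78.7 ± 12.9, Cacng4 at 70.1 ± 7.66 and the joint Cacng8 entry at 62.6 ± 15.5, while Cacng2, or stargazin, had 18.7 ± 2.85 and Cacng5 6.33 ± 1.69. Cacng4 and Cacng5 are neighbours on the minus strand of chromosome 11 (GRCm38, 107732357 to 107794557 and 107874605 to 107915055), and their levels were far apart. Of the cornichons, Cnih2 held 93.8% ± 1.60, and Cnih3 had 11.4 ± 3.75 FPKM.

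Single libraries set the extremes of many of these genes. WT cocaine ZT15 replicate 3 was the highest of the 66 libraries for 12 of the 31 entries. It had 131 FPKM of Grin2b, where the other 65 libraries had a median of 11.1 and at most 18.6, and 18.98 of Grin2a, where the others reached 4.10. Its Grik3, at 44.0, and Grm4, at 61.0, were also above every other library. This library had the lowest total FPKM and the lowest summed astrocyte and interneuron markers. It ranked 4 from the highest for markers of both kinds of MSN, but 65 for direct and for indirect MSN markers. The library iMSN-D2RKO saline ZT7 replicate 1 was the highest for 4 entries and the lowest for 9. In it Grin1 was 369 FPKM and Cacng2 55.7, while Gria2 was 31.7 against a median of 125 in the others. It had the highest total FPKM, and its indirect MSN markers summed to 10084, where no other library passed 3802. Its interneuron markers, at 3962, and its markers of both kinds of MSN, at 5599, were the highest too. The other libraries reached at most 2356 and 3502 of these. Over the 66 libraries the coefficient of variation of Grin2b was 117%, and 35.0% without this pair of libraries, and that of Grin2a fell from 72.8% to 28.6%. The part of either library's cell content in these values was not tested.

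The set-apart libraries moved the genes in opposite directions. The shift of a gene is the mean, over the 10 groups that hold such libraries, of the difference in log2(FPKM + 1) between the set-apart libraries and the rest of the group, and it is given as a description, since the libraries were told apart by these same values. Grm5 had a shift of +0.94, Grin2b of +0.90, Gria2 of +0.85 and Grik2 of +0.74. The joint Cacng8 entry had -1.12, Cnih2 -0.97, Grin2c -0.75, Cnih3 -0.71 and Grin2d -0.61. In FPKM, Gria2 had a mean of 217 in the set-apart libraries and 118 in the others, Grm5 109.9 and 58.1, Cnih2 91.2 and 191, and the joint Cacng8 entry 28.4 and 66.7. In 10 of 10 groups the set-apart libraries were higher for Grin1, all of the AMPA subunits, Grm3, Grm5, Cacng3 and Grik2, and lower for the joint Cacng8 entry, Cnih2, Cnih3, Grin2c and Grin2d. The helpers of AMPA receptors were thus divided: Cnih2, Cnih3 and the joint Cacng8 entry were lower in 10 of 10 groups and Cacng2 and Cacng4 in 7, while Cacng3 was higher in 10, Cacng7 in 9 and Cacng5 in 7, as the AMPA subunits were in 10. In bulk tissue, fewer cells of a type and less RNA per cell cannot be told apart.

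Genes that were higher in the set-apart libraries tended to have coding sequences poor in G and C. Across the 30 entries with a mean of at least 1 FPKM, the shift had a Spearman rho of -0.76 with the percent of G and C of the coding sequence, and of 0.22 with its length. Across 8882 genes with a mean above 5 FPKM the same values were -0.58 and 0.30, so the relation was not particular to glutamate receptors, and genes are not independent replicates. Coding sequences of Gria2, Grik2, Gria4 and Gria3 held 44.7% to 45.5% G and C, while Grin2c held 62.4%, Cacng8 66.7% and Grin2d 67.3%. Both cornichons had middling coding values, 54.0% for Cnih2 and 54.2% for Cnih3, beside some of the lowest shifts. Over the whole transcript rho was -0.78, and Cnih2 held 62.3%, close to Grin2c with 62.1%, while Cnih3 held 53.9%. The openings of the coding sequences of 3 genes that were higher and 3 that were lower in the set-apart libraries are printed to show this contrast, as the first 60 bases from the start codon in the GENCODE transcripts of GRCm38, with every G and C in capitals. The 3 higher genes are Grm5 (chr7:87602544-87602603, plus strand), Grin2b (chr6:136044242-136044301, minus strand) and Gria2 (chr3:80802325-80802384, minus strand):
Grm5: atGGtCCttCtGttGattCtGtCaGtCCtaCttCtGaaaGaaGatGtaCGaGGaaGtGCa
Grin2b: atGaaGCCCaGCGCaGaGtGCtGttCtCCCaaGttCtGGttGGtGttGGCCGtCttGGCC
Gria2: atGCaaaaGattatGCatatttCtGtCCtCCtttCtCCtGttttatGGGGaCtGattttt
The 3 lower genes are Cnih2 (chr19:5098204-5098263, minus strand), Cnih3 (chr1:181353426-181353485, plus strand) and Grin2c (chr11:115261073-115261132, minus strand):
Cnih2: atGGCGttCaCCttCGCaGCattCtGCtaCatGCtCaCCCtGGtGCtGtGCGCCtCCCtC
Cnih3: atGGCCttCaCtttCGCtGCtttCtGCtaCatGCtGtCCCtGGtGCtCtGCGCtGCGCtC
Grin2c: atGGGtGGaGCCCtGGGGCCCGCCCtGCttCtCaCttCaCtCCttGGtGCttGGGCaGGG
Gria2 has 21 G or C in its 60 bases and Grm5 26, while Cnih2 has 36 and Grin2c 40. Grin2b, with 35, equals Cnih3 in this opening stretch, and their whole coding sequences held 52.9% and 54.2% G and C, while their shifts were +0.90 and -0.71.

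**Figure D2:**
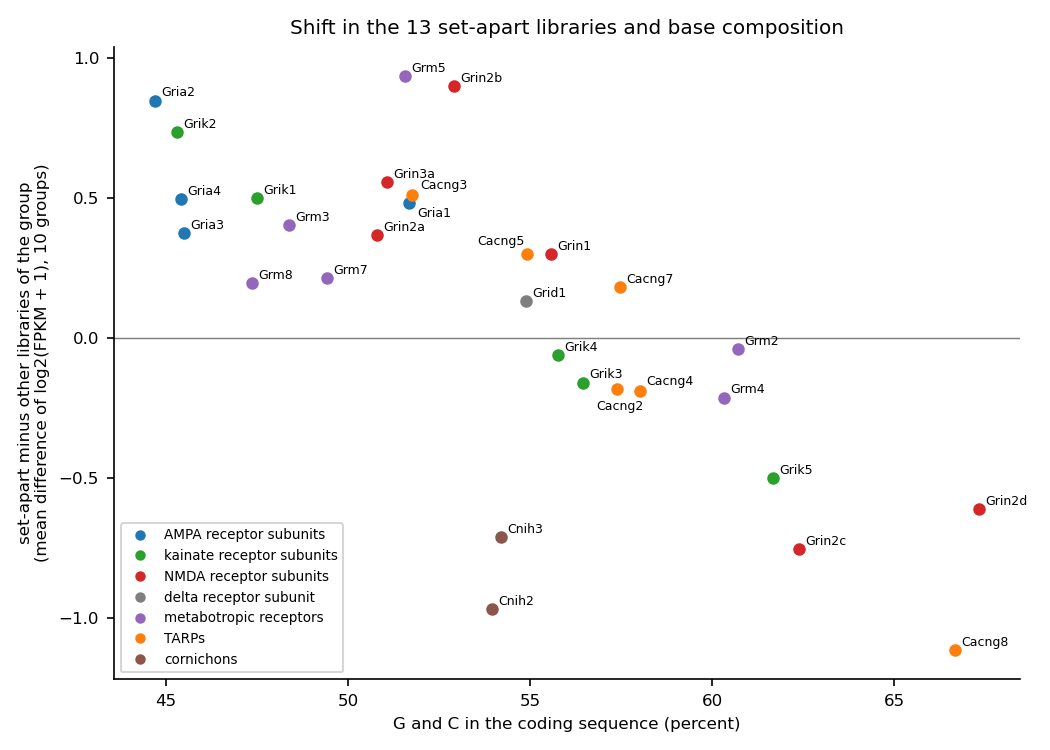
For each entry with a mean of at least 1 FPKM, the vertical axis gives the mean difference of log2(FPKM + 1) between set-apart libraries and the rest of their group and the horizontal axis the percent of G and C in the coding sequence, coloured by family. Points fall from Gria2 at 44.7% and +0.85 to Cacng8 at 66.7% and -1.12, with Cnih2 and Cnih3 below the others at 54.0% and 54.2%.

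The first comparison asked whether the genes differed between dark and light hours. In WT saline mice the 4 AMPA subunits and Grin2b were higher in the dark, and both cornichons and Grik4 were lower. The 8 genes called (limma with Benjamini-Hochberg adjustment over all genes, adjusted p under 0.05) were 8 of 31 entries tested, beside 23.8% of all 13940 genes tested, of which 17.1% were higher and 6.79% lower in the dark. The count of the receptor genes was thus close to that of genes in general.

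Gria1 had 74.0 FPKM at its lowest, 82.9 at the median and 99.9 at its highest in the 9 light libraries, and 93.5, 109 and 148 in the 9 dark ones. The groups overlapped only between 93.5 and 99.9, and the log2 difference was +0.39 (SE 0.09, limma adjusted p = 0.0154). By time, WT saline means were 85.7 ± 12.4, 79.1 ± 4.60, 91.9 ± 6.83, 100.1 ± 10.1, 125 ± 14.1 and 115 ± 29.2 FPKM from ZT3 to ZT23 (SD, n = 3 each). The other series ran over like values, with means of 78.9 to 135 after cocaine in WT, 86.5 to 127 after saline and 87.9 to 113 after cocaine in iMSN-D2RKO mice, which had 81.3 ± 14.5 at ZT3.

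Gria2 went from 88.7 at the lowest, 117 at the median and 145 at the highest in the light to 124, 135 and 247 in the dark (+0.43, SE 0.12, limma adjusted p = 0.0266). Its WT saline means were 114 ± 13.4, 103 ± 14.2, 129 ± 14.1, 142 ± 12.6, 163 ± 26.7 and 169 ± 68.0 FPKM in order of time. The highest value, at ZT23, was of a set-apart library, and the other libraries of that hour had 135 and 124. Gria3 rose from a light median of 38.9 to a dark median of 48.2 (+0.34, SE 0.08, limma adjusted p = 0.0145), with means from 37.0 ± 1.90 at ZT3 to 56.1 ± 11.01 at ZT23. Gria4 had the smallest of these differences, +0.27 (SE 0.09, limma adjusted p = 0.0458), and means of 20.8 ± 2.66 at ZT11 and 32.4 ± 7.47 at ZT19.

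Grin2b had light values of 6.78 at the lowest, 9.54 at the median and 14.8 at the highest and dark values of 8.46, 15.6 and 18.6 (+0.52, SE 0.14, limma adjusted p = 0.0243). Its means rose from 8.36 ± 1.04 at ZT3 to 15.3 ± 1.34 at ZT15. Cnih2 fell from a light median of 196 to a dark median of 179, and its lowest dark value was 87.8 (-0.42, SE 0.15, limma adjusted p = 0.0484). Means of Cnih2 were 184 ± 5.59 at ZT15 and 124 ± 53.0 at ZT19, where the set-apart replicates had 99.3 and 87.8 and the third 185. Cnih3 was lower in the dark than in the light (-0.49, SE 0.14, limma adjusted p = 0.0253). Its lowest mean was at ZT19, 5.76 ± 1.75, against 14.5 ± 2.08 at ZT3. Grik4 was lower in the dark as well (-0.26, SE 0.06, limma adjusted p = 0.0160). It also had its lowest mean at ZT19, 4.08 ± 0.369, and its highest, 6.77 ± 0.751, at ZT3.

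The 3 set-apart libraries of this series were all from dark hours, 2 of ZT19 and 1 of ZT23. Without them 5.76% of all genes were called and 4 of the 31 entries, namely Gria1 (+0.26, limma adjusted p = 0.0482), Gria3 (+0.24, adjusted p = 0.0489), Grik4 (-0.25, adjusted p = 0.0459) and Cacng5 (-0.44, adjusted p = 0.0474). The calls of Gria2 (+0.24, adjusted p = 0.0814), Gria4 (+0.09, adjusted p = 0.347), Grin2b (+0.30, adjusted p = 0.134), Cnih2 (-0.10, adjusted p = 0.234) and Cnih3 (-0.29, adjusted p = 0.149) were lost. With each library's score as a covariate 6.01% of all genes were called and of the entries Grik4 alone (-0.28, adjusted p = 0.0397). The direction was kept by all of these genes.

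In the WT cocaine series, which shares the ZT3 libraries with WT saline, 3 of 31 entries were called beside 19.3% of 14268 genes, 12.7% higher and 6.55% lower. Gria1 was higher in the dark (+0.48, SE 0.11, limma adjusted p = 0.0126), from a light median of 80.2 to a dark median of 130 FPKM. Grin2c was lower (-0.40, SE 0.12, limma adjusted p = 0.0348), from 17.5 to 14.5, with time means of 17.7 ± 2.03, 18.3 ± 3.77, 19.2 ± 3.15, 22.6 ± 5.90, 8.45 ± 0.881 and 13.4 ± 3.60. Cnih2 was lower as well (-0.42, SE 0.14, limma adjusted p = 0.0450), from 202 to 148. Light and dark values overlapped for all 3 of these genes. Replicate 2 of ZT19 was the only library of that hour in this series that was not set apart, and it had the highest Grik1 of all 66 libraries, 7.96 FPKM. Without the set-apart libraries Grik1 was at +0.55, with ZT19 resting on that library alone. Gria1 then had +0.43 (adjusted p = 0.0584), Grin2c -0.32 (adjusted p = 0.145) and Cnih2 -0.20 (adjusted p = 0.245), and with the score as a covariate 0 entries and 0.182% of all genes were called.

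In iMSN-D2RKO saline mice limma called 0 of 14135 genes between dark and light hours, with 4427 at an unadjusted p under 0.05, and 0 of 31 entries, with 9 at an unadjusted p under 0.05. With all libraries Gria2 was at +0.71 (SE 0.28, limma adjusted p = 0.127), Cnih2 at -0.63 (SE 0.23, adjusted p = 0.114) and Grik5 at -0.44 (SE 0.13, adjusted p = 0.109). When the set-apart libraries were left out, limma again called 0 genes, with 657 at an unadjusted p under 0.05, and 0 entries, with 0 under that p. Gria2 was then at +0.24 and Cnih2 at -0.17, Gria1 went from +0.34 to -0.02, and Grin2b turned from +0.27 to -0.23. With the score as a covariate Gria2 was at +0.09 and Cnih2 at -0.08. Gria2 spanned 31.7 to 130.3 FPKM in the light and 62.3 to 228 in the dark in this series. In iMSN-D2RKO cocaine mice 151 of 13944 genes, 1.08%, were called, 0.775% higher and 0.308% lower, and 0 of 30 entries, and Grin2d had the smallest p (-0.43, SE 0.13, limma adjusted p = 0.114). Grin2d and Gria3 were at an unadjusted p under 0.05. Without the set-apart libraries 11% of genes were called and Grin2d passed (-0.37, adjusted p = 0.0255). A difference between genotypes in the dark and light contrast itself was not tested apart from the cycles given further on.

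**Figure D3:**
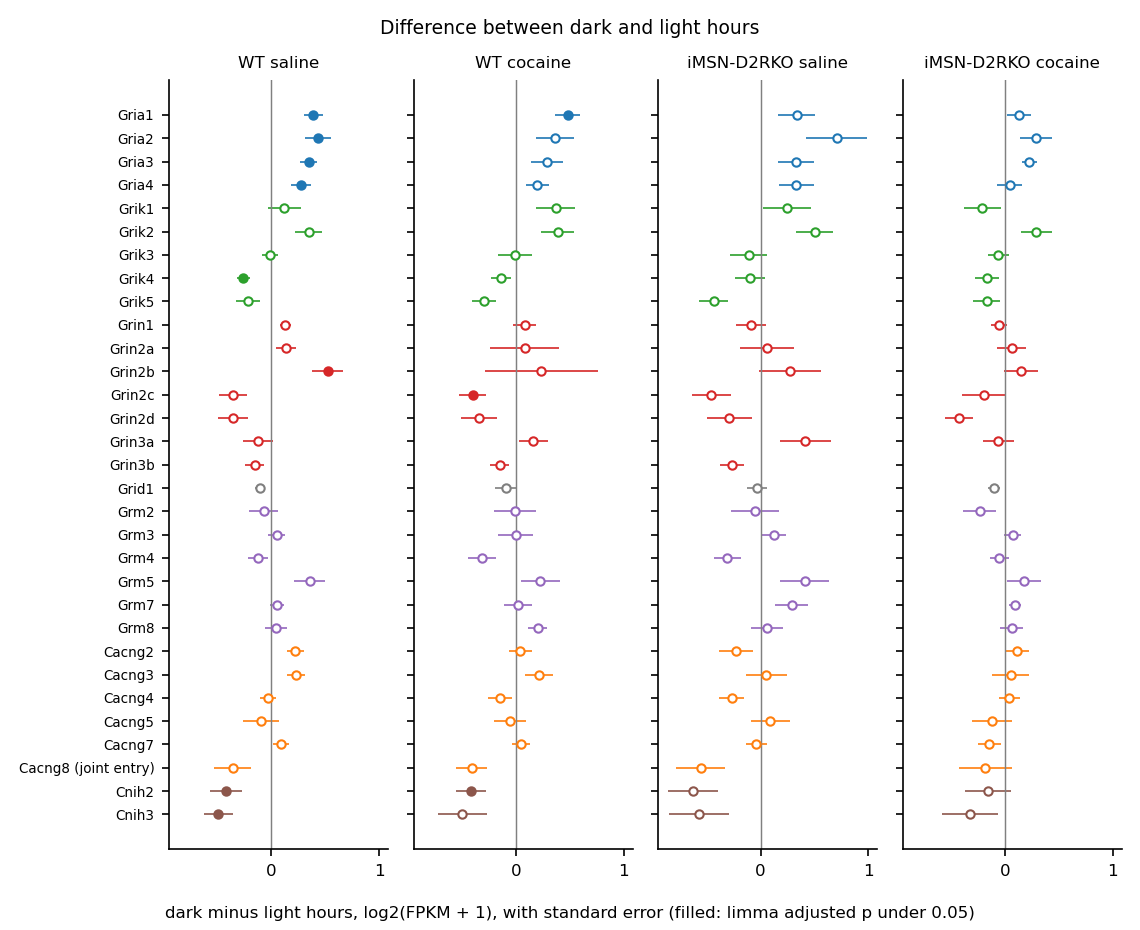
Difference in log2(FPKM + 1) between dark and light hours for each entry in the 4 series, with its standard error, and filled points where the limma adjusted p is under 0.05. With all libraries the AMPA subunits are right of 0 and the cornichons left of 0 in every series. Filled points number 8 in WT saline, 3 in WT cocaine and 0 in either iMSN-D2RKO series. With the library score as a covariate, not drawn, Gria2 (-0.14), Gria3 (-0.04), Gria4 (-0.08) and Cnih3 (+0.13) changed sign in WT cocaine. So did Gria1 (-0.02) in iMSN-D2RKO saline and Gria4 (-0.05) and Cnih2 (+0.06) in iMSN-D2RKO cocaine, while the others kept theirs.

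Group means of the genes called in any comparison and of the 3 highest genes are given next in FPKM (SD, n = 3), for ZT7, ZT11, ZT15, ZT19 and ZT23 in that order. Grin1 in WT saline had 165 ± 3.74 at ZT3 and 182 ± 6.86, 181 ± 14.6, 182 ± 11.1, 199.6 ± 8.35 and 197 ± 19.9 from ZT7 to ZT23. Grin1 after cocaine in WT mice had 191 ± 19.7, 189 ± 7.98, 211 ± 58.03, 205 ± 33.7 and 169 ± 19.6. Grin1 in iMSN-D2RKO mice had 179 ± 5.70 at ZT3, 246 ± 107, 172 ± 5.24, 179 ± 35.2, 191 ± 36.4 and 178 ± 16.1 after saline and 182 ± 7.70, 176 ± 12.5, 177 ± 27.8, 161 ± 0.595 and 183 ± 31.5 after cocaine. The iMSN-D2RKO saline mean at ZT7 came from 369, 174 and 196 in its replicates, and the WT cocaine mean at ZT15 from 195, 163 and 276, and the highest library of either group was extreme for many genes. Cnih2 in WT saline had 209.9 ± 10.1 at ZT3 and 181 ± 15.1, 197 ± 13.9, 184 ± 5.59, 124 ± 53.03 and 150.3 ± 51.4 from ZT7 to ZT23. With cocaine in WT mice Cnih2 had 193 ± 27.9, 189 ± 5.13, 208 ± 20.1, 113 ± 24.8 and 146 ± 58.2. Levels of Cnih2 in iMSN-D2RKO mice were 219 ± 38.2 at ZT3, 223 ± 77.2, 193 ± 26.9, 136 ± 31.8, 126 ± 58.7 and 173 ± 101 after saline and 143 ± 63.3, 178 ± 17.6, 148 ± 66.2, 177 ± 30.1 and 155 ± 47.1 after cocaine. The widest spread of Cnih2 was in iMSN-D2RKO saline at ZT23, with 162, 279 and 78.8, the last of them in a set-apart library.

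WT mice given cocaine had 121 ± 10.5, 125 ± 15.8, 139 ± 45.8, 196 ± 81.4 and 153 ± 53.6 of Gria2. Gria2 in iMSN-D2RKO mice had 88.5 ± 3.30 at ZT3, 83.95 ± 49.5, 105 ± 7.09, 153 ± 65.2, 172 ± 65.8 and 141 ± 72.1 after saline and 173 ± 55.5, 114 ± 16.7, 166 ± 55.97, 118 ± 4.85 and 166 ± 51.5 after cocaine. Replicates of iMSN-D2RKO saline at ZT15 had 117, 228 and 114, of which the highest was set-apart. Gria1 after cocaine in WT mice had 84.1 ± 10.6, 78.9 ± 4.33, 102 ± 32.8, 135 ± 5.07 and 116 ± 22.2. Levels of Gria1 in iMSN-D2RKO mice were 81.3 ± 14.5 at ZT3, 112 ± 17.4, 86.5 ± 2.89, 112 ± 44.3, 127 ± 36.3 and 123 ± 40.3 after saline and 113 ± 6.11, 87.9 ± 18.6, 109 ± 25.9, 90.2 ± 12.3 and 109 ± 20.1 after cocaine. In the same iMSN-D2RKO saline group at ZT15, Gria1 had 89.7, 163 and 82.6, with the same library on top. Gria3 in WT saline had 36.98 ± 1.90 at ZT3 and 38.7 ± 3.21, 39.4 ± 4.84, 43.3 ± 3.71, 48.7 ± 4.60 and 56.1 ± 11.01 from ZT7 to ZT23. With cocaine in WT mice Gria3 had 38.8 ± 3.31, 42.4 ± 4.70, 46.6 ± 21.5, 52.2 ± 16.8 and 50.7 ± 5.42. Gria3 in iMSN-D2RKO mice had 37.2 ± 3.94 at ZT3, 38.3 ± 16.3, 39.5 ± 4.75, 48.1 ± 10.03, 51.6 ± 13.5 and 44.5 ± 9.24 after saline and 48.5 ± 3.91, 41.6 ± 3.75, 48.1 ± 4.88, 47.1 ± 3.82 and 53.5 ± 6.51 after cocaine. At ZT15 after cocaine the WT replicates had 38.9, 30.1 and 70.9, the last in the library that was highest for many genes. Gria4 in WT saline had 22.999 ± 0.257 at ZT3 and 25.7 ± 2.78, 20.8 ± 2.66, 23.04 ± 0.615, 32.4 ± 7.47 and 30.3 ± 6.22 from ZT7 to ZT23. WT mice given cocaine had 21.5 ± 2.66, 23.8 ± 2.01, 19.99 ± 0.503, 31.8 ± 7.53 and 29.5 ± 8.22 of Gria4. Levels of Gria4 in iMSN-D2RKO mice were 24.5 ± 5.76 at ZT3, 21.1 ± 6.90, 23.3 ± 2.50, 29.2 ± 2.65, 33.01 ± 7.75 and 25.6 ± 8.61 after saline and 27.7 ± 4.34, 25.5 ± 2.298, 25.5 ± 5.96, 27.5 ± 5.14 and 27.3 ± 4.73 after cocaine. Of the AMPA subunits it was the lowest in every group.

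Grin2b in WT saline had 8.36 ± 1.04 at ZT3 and 8.72 ± 2.46, 11.99 ± 2.43, 15.3 ± 1.34, 12.9 ± 5.02 and 14.9 ± 4.06 from ZT7 to ZT23. Grin2b after cocaine in WT mice had 8.75 ± 0.148, 12.1 ± 2.37, 48.6 ± 71.3, 11.2 ± 8.57 and 11.4 ± 7.19. Grin2b in iMSN-D2RKO mice had 8.25 ± 1.55 at ZT3, 7.77 ± 3.59, 10.9 ± 1.77, 14.5 ± 3.72, 10.6 ± 5.85 and 10.7 ± 6.60 after saline and 9.74 ± 1.85, 14.3 ± 1.93, 11.3 ± 4.90, 10.4 ± 1.85 and 14.7 ± 3.12 after cocaine. The WT cocaine replicates at ZT15 had 7.91, 6.95 and 131, and at ZT19 16.3, 1.31 and 16.04, and no other group had a spread as wide. Cnih3 in WT saline had 14.5 ± 2.08 at ZT3 and 12.2 ± 1.45, 12.9 ± 3.66, 9.75 ± 2.16, 5.76 ± 1.75 and 13.5 ± 3.87 from ZT7 to ZT23. With cocaine in WT mice Cnih3 had 8.75 ± 1.76, 13.9 ± 3.12, 8.29 ± 3.69, 5.91 ± 0.402 and 13.9 ± 8.77. Levels of Cnih3 in iMSN-D2RKO mice were 15.9 ± 11.5 at ZT3, 11.5 ± 4.51, 14.1 ± 4.99, 8.44 ± 0.910, 6.89 ± 1.32 and 10.4 ± 6.89 after saline and 6.41 ± 2.52, 15.1 ± 2.38, 4.999 ± 1.68, 14.2 ± 1.71 and 8.97 ± 4.05 after cocaine. Its replicates at ZT3 in iMSN-D2RKO mice had 14.2, 28.1 and 5.44, wider than the range of its group means. Grin2c in WT saline had 17.7 ± 2.03 at ZT3 and 21.4 ± 4.67, 13.8 ± 2.85, 16.4 ± 2.35, 12.6 ± 2.82 and 11.7 ± 3.83 from ZT7 to ZT23. Grin2c after cocaine in WT mice had 18.3 ± 3.77, 19.2 ± 3.15, 22.6 ± 5.90, 8.45 ± 0.881 and 13.4 ± 3.60. Levels of Grin2c in iMSN-D2RKO mice were 19.3 ± 5.75 at ZT3, 16.98 ± 1.36, 15.4 ± 1.85, 14.2 ± 4.63, 10.9 ± 4.00 and 12.97 ± 5.05 after saline and 12.7 ± 4.35, 18.6 ± 4.62, 14.2 ± 4.56, 16.9 ± 5.12 and 12.9 ± 5.21 after cocaine. Its lowest mean was at ZT19 after cocaine in WT mice and its highest at ZT15 in the same series.

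Grik4 in WT saline had 6.77 ± 0.751 at ZT3 and 5.51 ± 0.420, 6.19 ± 0.691, 5.65 ± 0.382, 4.08 ± 0.369 and 5.24 ± 0.536 from ZT7 to ZT23. WT mice given cocaine had 5.43 ± 1.09, 5.76 ± 0.944, 5.90 ± 0.838, 5.32 ± 0.851 and 4.76 ± 0.324 of Grik4. Grik4 in iMSN-D2RKO mice had 6.38 ± 2.52 at ZT3, 5.69 ± 1.29, 6.45 ± 0.940, 5.59 ± 0.236, 5.88 ± 1.97 and 5.50 ± 0.576 after saline and 5.16 ± 0.323, 6.94 ± 0.562, 4.61 ± 0.300, 5.47 ± 1.27 and 5.90 ± 0.886 after cocaine. Group means stayed between 4.08 and 6.94. With cocaine in WT mice Grik2 had 26.7 ± 1.81, 27.4 ± 0.993, 31.7 ± 13.2, 41.96 ± 8.57 and 32.4 ± 13.4. Grik2 in iMSN-D2RKO mice had 21.6 ± 2.79 at ZT3, 27.1 ± 4.07, 23.2 ± 1.22, 33.2 ± 10.5, 40.4 ± 12.7 and 33.5 ± 13.9 after saline and 35.1 ± 8.28, 25.5 ± 3.13, 38.5 ± 14.7, 24.9 ± 0.919 and 39.5 ± 13.4 after cocaine. At ZT23 the WT saline replicates had 45.8, 22.8 and 23.4, the first of them set-apart. Grm4 in WT saline had 32.7 ± 6.32 at ZT3 and 32.01 ± 1.06, 30.99 ± 4.75, 34.3 ± 1.81, 27.8 ± 4.10 and 26.01 ± 4.50 from ZT7 to ZT23. WT mice given cocaine had 38.3 ± 7.88, 40.5 ± 6.85, 44.6 ± 14.9, 24.5 ± 4.10 and 23.9 ± 1.91 of Grm4. Levels of Grm4 in iMSN-D2RKO mice were 39.8 ± 6.61 at ZT3, 33.2 ± 5.63, 27.7 ± 3.15, 27.9 ± 5.89, 25.8 ± 6.30 and 26.8 ± 4.32 after saline and 27.7 ± 4.99, 31.4 ± 5.07, 31.5 ± 2.73, 31.1 ± 1.56 and 30.8 ± 0.795 after cocaine. The highest mean, at ZT15 after cocaine in WT mice, held the extreme library. Cacng4 in WT saline had 78.7 ± 9.47 at ZT3 and 66.3 ± 4.87, 67.8 ± 6.59, 71.7 ± 6.04, 71.8 ± 5.68 and 64.6 ± 8.79 from ZT7 to ZT23. Cacng4 after cocaine in WT mice had 74.8 ± 7.10, 74.6 ± 4.29, 94.2 ± 31.2, 57.4 ± 11.2 and 61.2 ± 1.01. Cacng4 in iMSN-D2RKO mice had 80.5 ± 12.9 at ZT3, 79.1 ± 8.23, 66.6 ± 3.51, 61.96 ± 2.56, 59.7 ± 13.8 and 66.8 ± 14.2 after saline and 69.6 ± 17.2, 67.9 ± 7.49, 74.9 ± 7.53, 76.6 ± 6.83 and 69.8 ± 3.07 after cocaine. In this gene too the widest spread was at ZT15 after cocaine in WT mice, with 85.3, 68.4 and 129.

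The study asked which genes cycle over the day. Under the rules of JTK_CYCLE (periods of 20 and 24 h, exact Jonckheere-Terpstra p multiplied by 11 pairs of period and phase, called under 0.01, with no adjustment over genes), 3 of 31 entries were called in WT saline beside 9.81% of all genes. They were Grik2 (exact p = 0.00339, peak at ZT17), Gria1 (exact p = 0.00507, peak at ZT19) and Gria2 (exact p = 0.00745, peak at ZT19). Grik2 means in WT saline were 22.8 ± 2.44, 23.3 ± 2.45, 26.1 ± 2.32, 27.6 ± 2.47, 36.7 ± 7.55 and 30.7 ± 13.1 FPKM from ZT3 to ZT23. At ZT19 the set-apart replicates of Grik2 had 39.4 and 42.6 and the third 28.2. Without the set-apart libraries Grik2 stayed under 0.01 (exact p = 0.00501), Gria1 and Gria2 did not (exact p = 0.0892 and 0.0732), and Grm7 was added (exact p = 0.00811). With the score removed from the values Grik5 alone was called (exact p = 0.00755). The Grik2 call was lost without outlier removal (exact p = 0.0199), with size factors (exact p = 0.0300) and without replicate 2 (exact p = 0.898) or replicate 3 (exact p = 0.0833). Gria1 and Gria2 were called without outlier removal and with size factors but not without replicate 2 (exact p = 0.134 for both) or replicate 3 (exact p = 0.0499 and 0.0286).

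In WT cocaine Grm4 was the 1 entry called of 31, beside 7.61% of all genes (exact p = 0.00755, peak at ZT11). Grm4, a presynaptic receptor known from striatal neurons that project to the globus pallidus, had means of 32.7 ± 6.32, 38.3 ± 7.88, 40.5 ± 6.85, 44.6 ± 14.9, 24.5 ± 4.10 and 23.9 ± 1.91 FPKM from ZT3 to ZT23. The ZT15 replicates were 40.9, 31.9 and 61.0, and the last of these is the library with the extreme Grin2b value. Leaving it out kept the call (exact p = 0.00339) and added Grik5 (exact p = 0.00507), while leaving out the set-apart libraries (exact p = 0.171) or any 1 replicate number (exact p from 0.0286 to 0.134) ended it. WT saline means of Grm4 stayed between 26.0 and 34.3, with an exact p of 0.995.

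In iMSN-D2RKO saline Cacng4 was called, 1 of 31 beside 2.58% of all genes (exact p = 0.00755, peak at ZT5). Its means were 80.5 ± 12.9, 79.1 ± 8.23, 66.6 ± 3.51, 62.0 ± 2.56, 59.7 ± 13.8 and 66.8 ± 14.2 FPKM. Without the library iMSN-D2RKO saline ZT7 replicate 1, whose value was 78.9 beside 71.0 and 87.4, Cacng4 was no longer under 0.01 (exact p = 0.0154), nor was it with size factors or without any 1 replicate number (exact p from 0.0286 to 0.134). Without the set-apart libraries it was called (exact p = 0.00424), together with Grin1 (exact p = 0.00738). In iMSN-D2RKO cocaine 0 of 30 entries were called beside 1.1% of all genes, and 0 had a JTK p under 0.05.

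**Figure D4:**
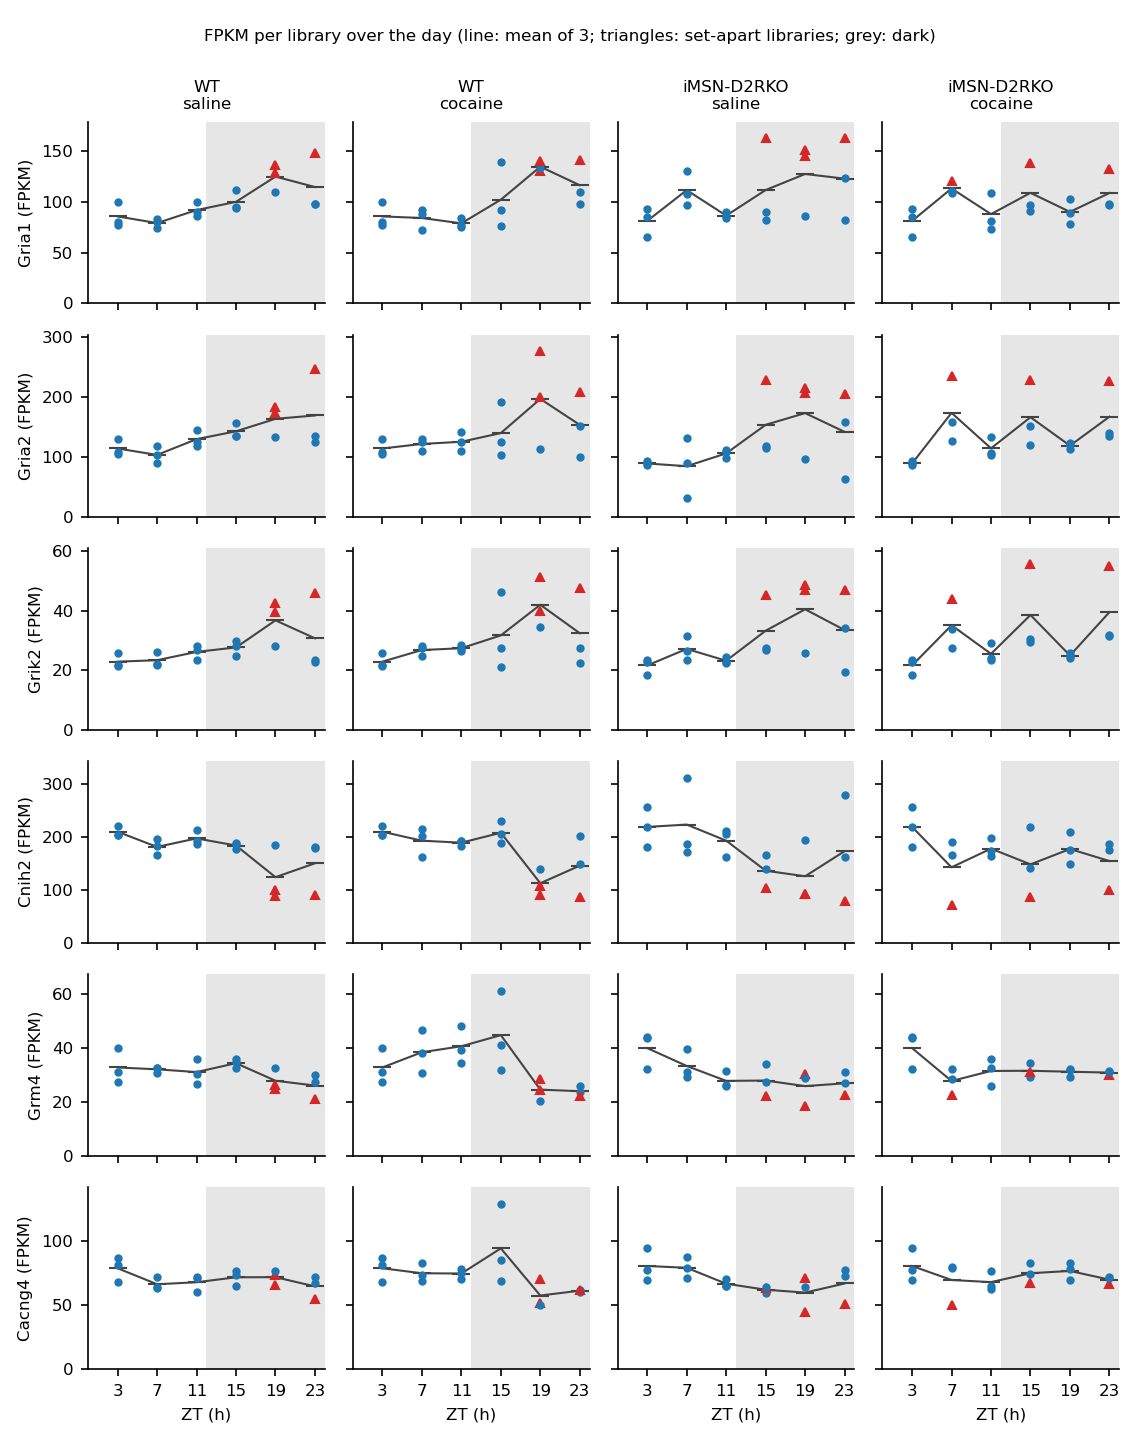
FPKM of 6 genes in each library by ZT in the 4 series, with a line through the mean of 3, triangles for set-apart libraries and grey for dark hours. Triangles lie at the top of most groups for Gria1, Gria2 and Grik2 and at the bottom for Cnih2, Grm4 falls after ZT15 in WT cocaine, and Cacng4 has its highest means at ZT3 and ZT7 in iMSN-D2RKO saline.

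Whether cycles differed between groups was tested with limma as an interaction with a 24 h cosine. It called 0 genes in all 4 comparisons, with 198 to 789 genes at an unadjusted p under 0.05. For iMSN-D2RKO against WT after cocaine, 3 of 31 entries had an unadjusted p under 0.05, led by Grm4, whose log2 range over the day was 0.92 in WT and 0.19 in iMSN-D2RKO (limma adjusted p = 0.590), and Gria1, with 0.71 and 0.25 (adjusted p = 0.590). After saline 3 entries, Grm2, Grm8 and Cacng2, were at an unadjusted p under 0.05. For cocaine against saline the numbers were 0 in WT and 1 in iMSN-D2RKO mice. A cycle of Grm4, Grik2, Gria1, Gria2 or Cacng4 called in 1 series and not in another is therefore not shown to differ.

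Genotype was compared over ZT3 to ZT23 for saline and over ZT7 to ZT23 for cocaine, where the ZT3 libraries were not used. After saline 27 of 14287 genes, 0.189%, were called by limma, 0.14% higher and 0.049% lower in iMSN-D2RKO mice, and 0 of 31 entries, with 2 at an unadjusted p under 0.05. The smallest p was that of Grm3, the Gi-coupled receptor of astrocytes and neurons, at -0.21 (SE 0.06, limma adjusted p = 0.304). Its iMSN-D2RKO means were 29.5 ± 0.962 at ZT3 and 24.9 ± 4.35, 28.3 ± 1.27, 29.3 ± 2.63, 32.6 ± 6.26 and 29.3 ± 7.14 from ZT7 to ZT23, each below the WT means of 33.9 ± 2.77, 31.0 ± 3.92, 33.7 ± 3.82, 33.3 ± 0.837, 34.4 ± 7.01 and 34.6 ± 5.19. With any 1 library left out the difference stayed between -0.23 and -0.18 (adjusted p from 0.189 to 0.516), and with the library score as a covariate, where 0.952% of all genes were called, it was called (-0.22, adjusted p = 0.0139). Without the set-apart libraries 0.334% of all genes and 0 entries were called, with Grm3 at -0.24 (adjusted p = 0.0782). Grid1 was the other entry (-0.12, SE 0.05, adjusted p = 0.402). Differences of the 31 entries ran from Grin2b at -0.25 to Grik1 at +0.12, with a median of -0.04 beside +0.01 over all genes, and 22 were below 0.

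After cocaine 7 of 14382 genes, 0.0487%, differed by genotype in limma, and 0 of 31 entries, and without the set-apart libraries 0.0987% of genes and again 0 entries. Cacng3 was the 1 entry at an unadjusted p under 0.05 (-0.26, SE 0.13), and Grm3 had -0.06. The summed FPKM of the indirect MSN markers had a median of 1768 in WT saline and 2402 in iMSN-D2RKO saline libraries, and of 1691 and 2657 after cocaine. Medians of Drd2, a gene of that list, went the other way, with 126 and 107 after saline and 132 and 117 after cocaine. Its means were 140 and 149 after saline and 156 and 134 after cocaine, and limma called neither difference. The part of the summed markers in these differences was not tested.

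Cocaine was compared with saline within each genotype over ZT7 to ZT23. In WT mice limma called 0 of 14392 genes, with 365 at an unadjusted p under 0.05, and 0 of 31 entries, 0 of them under that unadjusted p. The entries ran from Grin2b at -0.15 (SE 0.32) to Grm2 at +0.14 (SE 0.15), and 16 of 31 were above 0. In iMSN-D2RKO mice limma called 0 of 14238 genes, with 425 at an unadjusted p under 0.05, and 0 entries, with Grm2 (-0.30, SE 0.14) and Cacng7 (-0.13) at an unadjusted p under 0.05. Gria2 had the highest difference, +0.27 (SE 0.21). For the difference of the cocaine effect between genotypes, limma called 0 of 14622 genes, with 245 at an unadjusted p under 0.05, among them Grm2 (-0.44, SE 0.21).

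At single time points limma called 0.00683% of 14643 genes at ZT7 and at ZT15 and 0.0205% at ZT19 in WT mice, 0.0137% at ZT7 in iMSN-D2RKO mice and 0 genes at the other times, and 0 of 31 entries at any time, with 0 to 5 entries at an unadjusted p under 0.05. The smallest p of an entry was at ZT7 in iMSN-D2RKO mice, for Cacng2, at -0.81 (SE 0.21, limma adjusted p = 0.0934), with Gria2 at +1.20 (SE 0.37, adjusted p = 0.113). Cacng2 had 55.7, 21.4 and 25.04 FPKM after saline and 21.8, 11.96 and 19.5 after cocaine, and Gria2 had 31.7, 89.9 and 130.3 after saline and 158, 234 and 126 after cocaine. The first saline value of either gene is of iMSN-D2RKO saline ZT7 replicate 1, and the second cocaine value of a set-apart library. At ZT19 in WT mice the largest difference was that of Grin2b, -0.60 (SE 0.62).

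**Figure D5:**
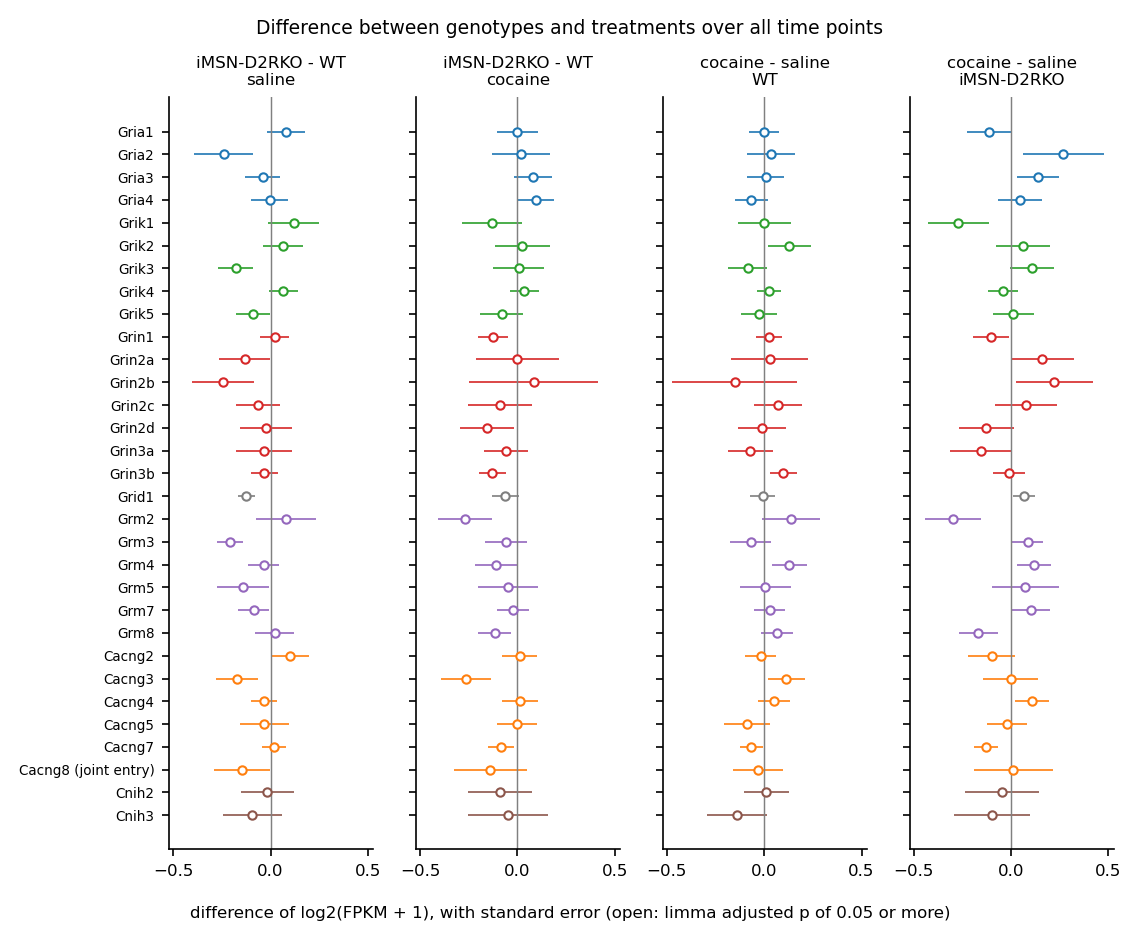
Difference in log2(FPKM + 1) between genotypes and between treatments for each entry, over ZT3 to ZT23 for genotype after saline and over ZT7 to ZT23 otherwise, with its standard error, open where the limma adjusted p is 0.05 or more. All points are open, and they lie between -0.30 for Grm2, with cocaine in iMSN-D2RKO mice, and +0.27 for Gria2 in the same comparison.

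Other genes of glutamate synapses were counted from lists chosen by function. Of the receptor auxiliary and trafficking proteins, 19 of 20 were found, and 3 of 19 were called between dark and light hours in WT saline, beside 23.8% of all genes: Porcn, which helps AMPA receptor assembly (-0.28, limma adjusted p = 0.0143), the AMPA receptor partner Gsg1l (+0.22, adjusted p = 0.0438) and the assembly factor Frrs1l (+0.39). Of 18 postsynaptic scaffolds and kinases 4 were higher and 1 lower in the dark, again beside 23.8% of all genes, led by Cnksr2 (+0.58), Dlgap2 (+0.32) and Dlg3 (+0.23). None of the 7 genes found of 8 for glutamate supply and uptake was called, 0 of 7 with 2 at an unadjusted p under 0.05 in limma. Without the set-apart libraries the counts were 1, 0 and 0, beside 5.76% of all genes. In WT cocaine 1 auxiliary gene, the secreted AMPA receptor organizer Nptx2 (-0.79, adjusted p = 0.0143), and 3 scaffolds, Dlgap1 (+0.38), Homer3 (-0.38) and Dlg3 (+0.28), were called beside 19.3% of all genes, and 1 and 0 beside 12.3% without those libraries. Between dark and light hours in the iMSN-D2RKO series limma called 0 genes of the 3 lists, with 4, 5 and 1 at an unadjusted p under 0.05 after saline and 3, 7 and 0 after cocaine. Between genotypes and between treatments, with all time points of the fit together, limma also called 0, with 0 to 2 of a list at an unadjusted p under 0.05. JTK calls in WT saline, beside 9.81% of all genes, were 2 of 19 auxiliary genes, Olfm1 and Porcn (exact p = 0.00173 for both), and 4 of 18 scaffolds, led by Dlg1 (exact p = 0.000486), Dlg3 (exact p = 0.000559) and Cnksr2 (exact p = 0.00173). WT cocaine had Nsf (exact p = 0.00253) and Dlgap1 (exact p = 0.00755), beside 7.61% of all genes, and iMSN-D2RKO cocaine Abhd6 (exact p = 0.00371), beside 1.1%.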

How the data were processed

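The study measured RNA of ventral striatum punches. Per the labels and the methods, the authors made stranded poly(A) libraries, aligned single-end reads to mm10 with TopHat and Bowtie2 and computed FPKM with Cufflinks and Cuffnorm (CASAVA 1.8.2 for base calls), and all results here rest on the FPKM as deposited. Which annotation release and which Cuffnorm scaling they used is not given in the sources used here. FPKM keep no read numbers, so depth is unknown and the precision of a value is that of 3 replicates.

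The 72 columns were all mapped to samples, and 6 of them repeat the ZT3 libraries. Libraries were grouped by genotype, treatment and time. Differences were tested on log2(FPKM + 1) with limma 3.58.1 (R 4.3.3, empirical Bayes with trend), for genes that reached 1 FPKM in 1 or more libraries of the fit, and p-values were adjusted by Benjamini-Hochberg over every gene tested. Of the genes described, 31 entries passed this filter, 30 in the iMSN-D2RKO cocaine series, and Grm6 never did. Genotype and treatment fits had time as a covariate. Cycling was scored by a rewriting of JTK_CYCLE in Python 3.11.15 (numpy 2.4.6, pandas 2.3.3, scipy 1.17.1) after Dixon outlier removal at 95%, and how it orders tied periods and phases was set by comparison with the study's table of cycling genes. Set-apart libraries had a score above 30 on the first principal axis of deviations from group means. Sequences, positions and G and C contents are of the GENCODE transcript with the longest coding sequence. Figures were drawn with matplotlib 3.10.9. Scripts were tested on simulated data.

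Genes and lists were chosen with earlier results of these data known. All genes described are accounted for, values by group or library are given for those called and for the 3 highest, and of each list at most 3 called genes by smallest p are named. Alternatives were another pseudocount, filter or scaling, array weights, the score as a covariate, a replicate block and leaving out libraries. Leaving out WT cocaine ZT15 replicate 3 and iMSN-D2RKO saline ZT7 replicate 1 was chosen after seeing the data.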

Additional observations from a re-analysis of the deposited data

How the results depend on the processing

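Counts are numbers of the entries called. A count without a number or share of all genes beside it shows only how the count moved. For dark against light hours in WT saline the count was 8, and 4 when the set-apart libraries were left out, 1 with the score as a covariate, 19 with array weights and 0 to 14 without 1 replicate number. In WT cocaine it was 3, and 6 with median-ratio size factors, 0 with the score and 15 with array weights. It was 0 to 6 without 1 replicate number and 5 without the pair of extreme libraries. Without the set-apart libraries, where replicate 2 alone was left at ZT19, Grik1 was at +0.55. In iMSN-D2RKO saline it was 0, and 18 with array weights and 0 to 7 without 1 replicate number. In iMSN-D2RKO cocaine it was 0, and 1 without the set-apart libraries, 2 with the score and 9 with array weights. Array weights called 39.7% to 65.3% of all genes in these comparisons, and the cause was not tested.

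JTK calls were 3 in WT saline. They were 7 at p under 0.05, beside 3304 of 13940 genes, and 1 with the score removed, beside 7.17% of all genes. Without 1 replicate number they were 0 to 3, beside 204 to 791 genes. JTK calls were 1 in WT cocaine. They were 4 at p under 0.05, beside 2779 of 14268 genes, and 2 with size factors, beside 1155 of 14294. With the score removed they were 2, beside 6.92% of all genes. Without 1 replicate number they were 0, beside 212 to 856 genes, and without the extreme libraries 2, beside 1317 of 14268. JTK calls were 1 in iMSN-D2RKO saline. They were 4 at p under 0.05, beside 1602 of 14135 genes, and 0 with size factors, beside 375 of 14089. With the score removed they were 0, beside 1.89% of all genes. Without 1 replicate number they were 0 to 2, beside 80 to 940 genes, and without the extreme libraries 0, beside 334 of 14135.

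From a count of 0, genotype after saline had 1 with the score (Grm3), beside 0.952% of all genes. It had 3 with array weights (Grm3, Grid1, Cacng3), beside 3.17%. Cocaine at single time points, with calls summed over 5 time points of 31 entries each, had 2 in WT without the set-apart libraries (Grik1 and the joint Cacng8 entry at ZT19, beside 1509 of 14438 genes, with 1 library left in either group, assumed to vary like the others). With array weights it had 15 in WT and 41 in iMSN-D2RKO mice, beside up to 5507 and 10758 of 14643 genes at a time, and 0 to 2 in the latter without 1 replicate number. Differences in cycles had 5 (genotype after cocaine) and 10 (cocaine in WT) with array weights. These counts have no share of all genes beside them, so they show only how the count moved and are not a result about the entries.

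Within a time point, deviations of same-numbered libraries had a median correlation of 0.02 between genotypes and -0.11 between treatments. For libraries with other numbers these medians were 0.02 and 0.07. Whether replicate numbers pair libraries across time points was not tested. With a replicate block as a term the count for dark against light hours in WT saline moved from 8 to 14. It has no share of all genes beside it, so it is not a result about these entries. JTK calls with the block were 5 in WT saline, beside 2145 of 13940 genes, and 3 in WT cocaine, beside 1272 of 14268. In iMSN-D2RKO saline they were 0, beside 343 of 14135. No value changed sign among those called, and of the counts 231 stayed within 1.5 times and 51 did not. Most comparisons had a count of 0 to begin with, and counts that stayed at 0 are among the 231. The tally therefore does not show how steady the calls were. FPKM hold no read numbers, so which differences depth could not show was not worked out.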
